A study of Homo sapiens with 58 samples.

Results

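A group of 127 regulatory elements (REs), of 151457 REs counted by ATAC-seq, lost accessibility within hours of SOX9 degradation but had at most 0.3 of their final log2 loss at the concentration of the degrader that left 25.8% of SOX9. ATAC-seq measures open chromatin by the insertion of sequencing adapters with the Tn5 transposase, and CPM is the count of an RE after the sample's total over all REs was scaled to 1000000. The cells were cranial neural crest cells (CNCCs) that had been derived in culture from the human embryonic stem cell line H9. In SOX9-tagged cells both alleles of SOX9 carry a degradation tag together with mNeonGreen and V5, and the small molecule dTAGV-1 directs the tagged protein to degradation. Each of the edited lines, S9CC13 and S9CC47, is 1 clone, and wild-type (WT) H9 cells carry no tag.

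At 48 h the SOX9-tagged cells had received 0, 0.5, 1.6, 5, 16 or 500 nM dTAGV-1, for which the labels give SOX9 levels of 100, 77.9, 51.7, 25.8, 8.14 and 0.95% of that without the molecule. Each concentration held 7 samples, 4 of clone S9CC13 and 3 of clone S9CC47, named by their differentiation as R6, R10, R13 and R14 for the former and R5, R6 and R8 for the latter. WT cells at 48 h held 2 samples with 0 nM and 2 with 500 nM. A time course held 2 samples each (R4 and R5) of SOX9-tagged and of WT cells with vehicle for 24 h or with 500 nM dTAGV-1 for 3 h or 24 h. SOX9 protein was not measured in this assay.

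The 127 REs were chosen by measured values. On the log2(CPM + 0.5) scale, D500 and D5 are the mean changes over the 7 replicates from 0 nM to 500 nM and to 5 nM at 48 h, and D3 is the mean change over R4 and R5 from vehicle to 3 h in SOX9-tagged cells. An RE was kept with a mean CPM at 0 nM of at least 2, D500 above -2 and at most -1, D3 of at most -0.5, and D5/D500 of at most 0.3. They are called buffered rapid REs here, where buffered means only that D5/D500 limit. With the same CPM minimum and range of D500, 2396 REs were found, of which 2223 also met the 3 h limit. The other 2096 of these, with D5/D500 over 0.3, are called sensitive rapid REs and serve as the comparison, beside 45 REs that met the D5/D500 limit but not the 3 h limit.

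Just inside and just outside the limits the values were close. At the D500 limit, the RE nearest PREX1 was inside with -1.01 and one nearest ODAM outside with -0.99. At the 3 h limit, a VGLL4 RE was inside with D3 of -0.52 and one nearest FUT9 outside with -0.49. At the D5/D500 limit, the RE nearest MYCN was inside with 0.2999 and one in chromosome 13 (chr13:63110296-63111183) outside with 0.3001.

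SOX9 is a transcription factor with a high-mobility-group domain that binds short A/T-rich sites built around ACAAT in the minor groove and bends the DNA. It can bind as a dimer to pairs of such sites that face each other. In the embryo it takes part in the specification of the neural crest, from which much of the facial skeleton forms, and it drives the cartilage program. Accessible REs away from promoters are often enhancers, which are bound by several factors together. In CNCCs these factors include TWIST1, which binds E-boxes such as CATCTG, TFAP2A, which binds GCCNNNGGC, and the nuclear receptor NR2F1, which binds AGGTCA.

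The sequences of 6 buffered rapid REs are shown first, because they show REs with facing ACAAT letters and REs of high accessibility without ACAAT. All are 200 bases of the + strand of hg38. In the first 4, capitals mark each ACAAT or its complement ATTGT in the window, and a facing pair (ACAAT followed by ATTGT) stands near the middle. These 4 are the only buffered rapid REs with a facing pair at a gap of 0 to 10 bases. They are in an intron of BMP7 (chr20:57241735-57241934), and in intergenic sequence nearest the starts of API5 (chr11:43022225-43022424), ANO3 (chr11:26068897-26069096) and MGAT4C (chr12:87384301-87384500). The gap between the facing sites was 6 bases at BMP7, 7 at API5, 6 at ANO3 and 9 at MGAT4C.
BMP7 intron: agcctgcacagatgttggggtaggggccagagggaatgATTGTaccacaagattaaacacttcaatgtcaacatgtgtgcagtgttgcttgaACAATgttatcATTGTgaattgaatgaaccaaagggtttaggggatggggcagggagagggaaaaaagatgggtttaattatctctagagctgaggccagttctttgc
near API5: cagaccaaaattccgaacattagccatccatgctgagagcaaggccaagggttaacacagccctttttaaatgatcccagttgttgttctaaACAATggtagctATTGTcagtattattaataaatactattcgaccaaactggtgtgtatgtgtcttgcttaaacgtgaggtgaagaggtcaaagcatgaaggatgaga
near ANO3: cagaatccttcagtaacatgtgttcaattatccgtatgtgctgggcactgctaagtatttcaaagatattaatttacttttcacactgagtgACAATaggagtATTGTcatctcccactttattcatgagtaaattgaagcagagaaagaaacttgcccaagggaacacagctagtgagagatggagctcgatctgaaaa
near MGAT4C: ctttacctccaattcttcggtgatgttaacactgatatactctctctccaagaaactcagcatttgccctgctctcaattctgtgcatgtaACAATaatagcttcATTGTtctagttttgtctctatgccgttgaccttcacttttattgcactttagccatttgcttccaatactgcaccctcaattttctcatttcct

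The last 2 are the REs of highest accessibility without any ACAAT in their central 501 bases, nearest ITPR3 (chr6:33610893-33611092) and BMF (chr15:40081904-40082103). Here capitals mark CATCTG and the complement of AGGTCA near ITPR3, and GCCNNNGGC near BMF. Such letters were not marked in the sequences above. The BMP7 window holds the complement of CATCTG, the API5 window holds AGGTCA and the MGAT4C window the complement of AGGTCA. The BMP7 RE was about as accessible as these, with a mean of 69.7 CPM at 0 nM, compared with 73.5 (ITPR3) and 70.5 (BMF).
near ITPR3: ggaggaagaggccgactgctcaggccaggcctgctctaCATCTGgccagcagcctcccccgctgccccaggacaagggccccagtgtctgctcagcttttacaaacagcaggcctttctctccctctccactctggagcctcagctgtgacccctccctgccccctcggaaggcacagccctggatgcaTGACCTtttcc
near BMF: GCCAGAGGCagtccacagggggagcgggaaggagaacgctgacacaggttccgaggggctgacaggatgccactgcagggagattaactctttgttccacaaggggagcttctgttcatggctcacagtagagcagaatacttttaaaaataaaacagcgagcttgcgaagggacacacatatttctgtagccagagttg

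Over all 127 buffered rapid REs, ACAAT on either strand was in the central 501 bases of 90 (70.9%), compared with 69.5% of the sensitive rapid REs and 50.6% of all REs. The longer letters AACAATG or AACAATA, which contain ACAAT, were in 37 (29.1%), compared with 24.0% and 12.5%. Facing pairs were in 3.15%, compared with 2.15% and 0.559%. AGGTCA was in 44.9%, compared with 36.0% and 33.2%, and the homeobox letters TAATTA were in 21.3%, compared with 13.98% and 13.1%. CATCTG was in 52.0%, compared with 48.7% and 41.2%, and GCCNNNGGC or GCCNNNNGGC was in 39.4%, compared with 35.8% and 39.0%. All were searched on both strands, the windows share their length, and the differences between these shares were not tested. Other SOX-binding letters were not searched, so REs without ACAAT are not shown to lack SOX sites. Among the 45 REs that met the D5/D500 limit without the loss at 3 h, 44.4% held ACAAT, 8.89% the longer letters and 2.22% a facing pair. AGGTCA was in 46.7% of these 45, TAATTA in 4.44%, CATCTG in 62.2% and GCCNNNGGC or GCCNNNNGGC in 51.1%. The windows also differed in base content. The median share of G and C was 53.9% in these 45, 46.3% in the buffered and 46.5% in the sensitive rapid REs, and 48.1% in all REs. Its part in the shares of letters was not tested.

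Of the 127 REs, 49 were in introns of protein-coding genes, 15 in introns of long non-coding RNAs and 42 were intergenic, whereas 8 overlapped coding exons, 3 untranslated regions and 10 non-coding exons. An annotated start site of any transcript lay within 1000 bp of 19 REs, which is 15.0% compared with 13.5% of the sensitive rapid REs and 24.7% of all REs. From the nearest protein-coding start, 103 REs (81.1%) were over 10 kb away, compared with 79.6% of the sensitive rapid REs and 67.8% of all REs. Over 100 kb away were 47 (37.0%), compared with 30.0% and 25.3%. These shares were not tested. They had 117 different nearest protein-coding genes, 10 of which had 2 of the REs. A nearest gene is a statement of position only, and expression was not measured here.

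At 0 nM the median accessibility of the 127 REs was 23.8 CPM per kb of RE length, compared with 8.82 for the sensitive rapid REs and 4.31 for all REs. The 45 REs that met the D5/D500 limit without the loss at 3 h had 16.7. Of the 127, 123 were above the median of all REs and 96 were above the upper quartile. The level at 0 nM takes part in the choice of the REs, so the same was read in WT cells without dTAGV-1, which it did not use. There, at 48 h, the medians were 30.4 CPM per kb for the 127 REs and 10.4 for the sensitive rapid REs. They were 27.2 for the 45 REs and 4.62 for all REs. When the 2223 rapid REs were split into 4 equal parts by CPM per kb in those WT cells, buffered REs were 1.62% of the lowest, 2.70% and 4.32% of the next, and 14.2% of the highest. This order is a description over REs of the same samples and has no test.

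Accessibility of the buffered rapid REs changed little at the low concentrations. From 0 to 500 nM, the medians in CPM per kb at the 6 concentrations were 23.8, 24.5, 22.6, 18.3, 13.1 and 8.24. The sample medians overlapped between 0 nM (15.3 to 29.8) and 1.6 nM (13.8 to 28.7), whereas at 16 nM (7.87 to 14.9) all 7 were below all 7 at 0 nM. Within replicates, the median log2 difference of the 127 REs from 0.5 to 1.6 nM was negative in 7 of 7, between -0.20 and -0.02, whereas over all REs it was between -0.01 and 0.01. Over the sensitive rapid REs the medians were 8.82, 8.33, 7.26, 4.95, 3.53 and 2.68. In ATAC-seq of bulk cells, fewer accessible cells and less accessibility per cell cannot be told apart.

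**Figure D1:**
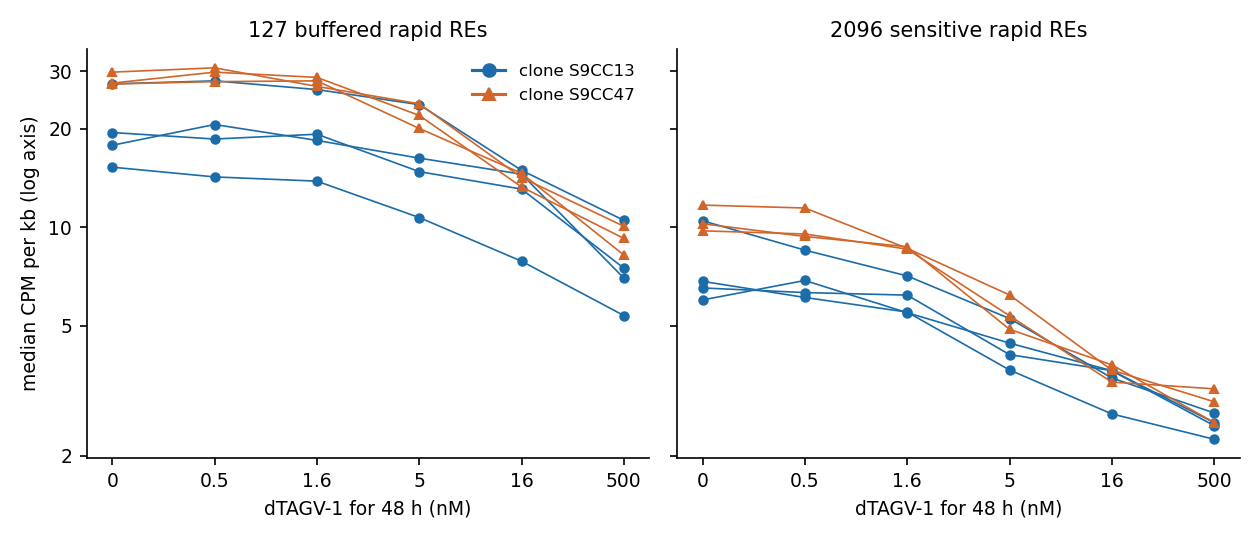
Median CPM per kb (log axis) of the 127 buffered rapid REs (left) and the 2096 sensitive rapid REs (right) in each sample at 6 concentrations of dTAGV-1 (nM). Each line is 1 replicate, circles for clone S9CC13 and triangles for S9CC47; from 0 to 1.6 nM the median log2 difference of the buffered REs is between -0.15 and 0.07 in the replicates, and from 0 to 500 nM between -1.57 and -1.10.

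As a share of the log2 change at 500 nM, the buffered rapid REs had reached a median of -2.51% when treated with 0.5 nM, 3.47% with 1.6 nM, 26.9% with 5 nM and 57.5% with 16 nM. The sensitive rapid REs had reached 3.75, 16.3, 50.8 and 79.05%. The values at 5 nM separate the classes by their definition. All of these shares use the 0 nM and 500 nM samples that chose the REs, and they are given as description with no test.

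**Figure D2:**
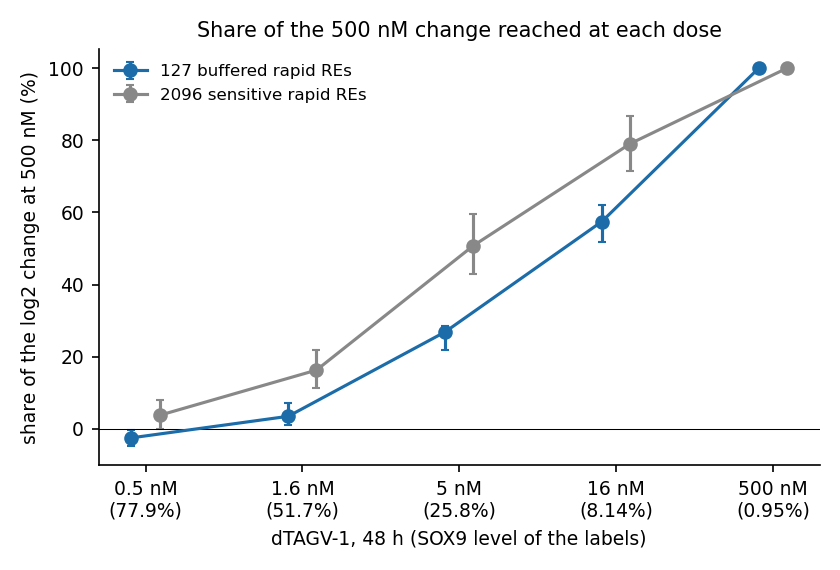
Share of the log2(CPM + 0.5) change at 500 nM reached at each lower concentration, with the SOX9 level of the labels. Points are medians over 127 buffered and 2096 sensitive rapid REs and bars run from the lower to the upper quartile over REs; the buffered REs are at 57.5% and the sensitive REs at 79.05% at 16 nM.

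The step from 1.6 to 16 nM, from 51.7 to 8.14% SOX9, used no sample that chose the REs, although the samples came from the same differentiations. Accessibility fell in 125 of the 127 buffered rapid REs between these concentrations and rose in none (edgeR quasi-likelihood test with Benjamini-Hochberg adjustment over all REs, threshold 0.05). Of all REs, 6.02% were lower and 3.51% higher. The median log2 fold change was -0.83, with a range from -2.11 to -0.29, and the median over all REs was 0.01. As a fold this was a median of 1.78-fold lower, with 33 REs over 2-fold and 16 under 1.5-fold. The sensitive rapid REs had a median of -1.06 (2095 of 2096 lower) and the 45 REs without the loss at 3 h -0.59 (45 of 45 lower).

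Within replicates, 114 of the 127 were lower at 16 nM in 7 of 7 replicates, which 6.64% of all REs were. In 29, the 7 samples at 16 nM were all below the 7 at 1.6 nM, which held for 1.38% of all REs. The median difference over the REs ran by replicate from -0.33 (S9CC13 R14) and -0.47 (S9CC13 R13) to -0.87 (S9CC47 R8) and -1.09 (S9CC47 R5). Without any covariate for differentiation, 72 of the 127 were lower, as were 2.56% of all REs, and with each replicate as a block 127 were lower, as were 9.41% of all REs.

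BMP7 encodes a secreted ligand of the bone morphogenetic protein (BMP) pathway, and the RE in its intron (chr20:57241590-57242090) was 23.7 kb from its start. Its CPM was from 46.9 to 82.7 (median 80.6) at 0 nM, 47.8 to 90.1 (77.1) at 1.6 nM, 33.1 to 75.5 (54.2) at 5 nM, 23.0 to 53.7 (44.6) at 16 nM and 12.1 to 34.0 (24.9) at 500 nM. The 1.6 nM samples lay over the same range as at 0 nM, and the 16 nM samples overlapped with the lowest of them. The step from 1.6 to 16 nM was -0.71 ± 0.09 (log2, SE; edgeR adjusted p = 1.07e-05). BMPR1B encodes a type I BMP receptor, and the RE nearest its start, in an intron of UNC5C (chr4:95250677-95251177), was among the least accessible, with 1.20 to 4.47 CPM (median 2.26) at 0 nM, 1.15 to 4.51 (2.59) at 1.6 nM and 0.750 to 2.07 (1.49) at 16 nM. Its groups overlapped, and its step was -1.04 ± 0.19 (adjusted p = 0.000907).

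TCF7L2 is a transcription factor that acts with beta-catenin in the WNT pathway. The RE nearest its start lay in an intron of VTI1A (chr10:112775868-112776684). It held 26.0 to 45.0 CPM (median 41.4) at 0 nM, 21.6 to 43.8 (36.8) at 1.6 nM, 15.2 to 35.3 (28.3) at 5 nM, 10.5 to 24.8 (21.5) at 16 nM and 6.46 to 16.1 (12.8) at 500 nM. At 16 nM, 2 samples were above the lowest sample at 1.6 nM, and the step was -0.82 ± 0.08 (adjusted p = 9.42e-07).

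FOXC1 is a forkhead transcription factor of facial and ocular mesenchyme. The RE nearest its start, 256 kb away in an intron of GMDS (chr6:1865553-1866053), held 9.03 to 19.5 CPM (median 14.03) at 0 nM, 9.70 to 19.9 (12.2) at 1.6 nM, 5.90 to 15.7 (9.56) at 5 nM, 3.84 to 7.45 (5.36) at 16 nM and 1.66 to 5.80 (3.98) at 500 nM. Every sample at 16 nM was below every sample at 1.6 nM, and the step was -1.25 ± 0.10 (adjusted p = 9.51e-08).

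The REs of adhesion genes fell as well. NCAM1 encodes the neural cell adhesion molecule, and an RE in its intron (chr11:113211586-113212704) held 11.0 to 34.5 CPM (median 24.3) at 0 nM, 10.1 to 35.6 (25.6) at 1.6 nM and 6.87 to 24.0 (15.4) at 16 nM. The groups overlapped, with S9CC13 R10, R13 and R14 below the other replicates at each of these concentrations, and the step was -0.62 ± 0.09 (adjusted p = 5.66e-05). CDH11 encodes a cadherin of mesenchymal cells, and the RE nearest it, 478 kb away, held 18.5 to 41.3 CPM (median 25.9) at 0 nM, 19.5 to 40.2 (22.8) at 1.6 nM and 7.51 to 31.8 (12.9) at 16 nM. At 16 nM, the 3 samples S9CC13 R10, R13 and R14 were within the range of the 1.6 nM samples, and the step was -0.83 ± 0.11 (adjusted p = 5.34e-05).

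The gene lists were chosen with earlier results of these data known, so their counts are descriptions. There were 666 REs with a cartilage gene (such as COL2A1, ACAN and SOX5) as nearest gene or host. Of these, 0 were buffered rapid REs and 20 were sensitive rapid REs (0.954% of the sensitive rapid REs, compared with 0.44% of all REs). With shares this small, a count of 0 among the buffered rapid REs cannot be told apart from the share of all REs. Of 1524 REs of neural crest and facial transcription factors, 1 was a buffered rapid RE, the one nearest FOXC1. This is 0.787% of the buffered rapid REs, compared with 1.24% of the sensitive rapid REs and 1.01% of all REs. Signalling genes (BMP, TGF-beta, FGF, WNT and hedgehog) had 4 of 1645 REs, at BMP7, BMPR1B and 2 at TCF7L2, which is 3.15% of the buffered rapid REs compared with 1.09% of all REs. Matrix, adhesion and migration genes had 3 of 1477, at CDH11 and 2 at NCAM1, which is 2.36% compared with 0.975%.

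The most accessible buffered rapid REs included some of the most level ones. BMF encodes a BH3-only protein that promotes cell death, and the RE nearest its start (chr15:40081641-40082467) held 60.3 to 80.3 CPM (median 72.3) at 0 nM, 60.6 to 83.3 (69.3) at 1.6 nM, 57.8 to 80.9 (63.3) at 5 nM, 49.1 to 68.5 (57.9) at 16 nM and 28.3 to 37.2 (33.9) at 500 nM. Its ranges overlapped from 0 to 16 nM, and all samples at 500 nM were below all others. The step from 1.6 to 16 nM was -0.29 ± 0.05 (adjusted p = 0.000423), the smallest of the 127. ITPR3 encodes a calcium channel of the endoplasmic reticulum, and the RE nearest it had the highest mean at 0 nM. It held 65.9 to 85.8 CPM (median 74.2) at 0 nM, 62.8 to 81.2 (68.2) at 1.6 nM and 30.4 to 52.0 (36.4) at 16 nM, with no overlap of the last 2 (-0.94 ± 0.09, adjusted p = 1.11e-06).

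Of the other REs with a D5/D500 near 0, the RE nearest SLC44A3, a choline transporter-like gene, held 44.5 to 79.2 CPM (median 62.9) at 0 nM and 40.1 to 75.1 (58.9) at 5 nM. The RE nearest GSDMC, a gasdermin gene, held 29.5 to 54.8 CPM (median 41.3) at 0 nM and 27.0 to 54.0 (39.0) at 5 nM. Their groups overlapped at these concentrations, as the selection by D5 implies. Between 1.6 and 16 nM they fell by 0.46 and 0.52 on the log2 scale (adjusted p = 0.00017 and 1.85e-05). REs at SEMA5A, which encodes a semaphorin guidance protein, and nearest C1GALT1C1, which encodes a chaperone of a glycosyltransferase, fell by 0.55 and 0.76 (adjusted p = 0.00882 and 0.00157).

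**Figure D3:**
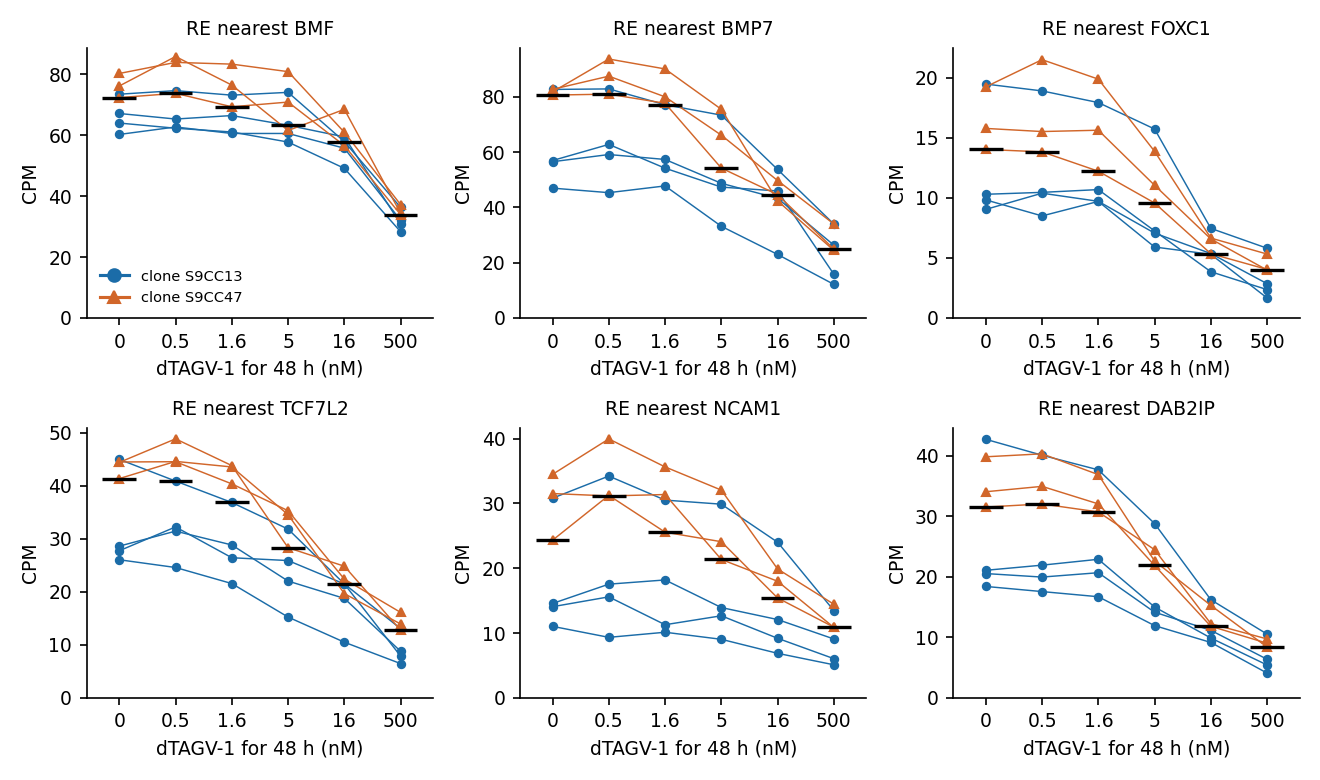
CPM of 6 buffered rapid REs in each of the 7 replicates at 6 concentrations of dTAGV-1 (nM), with circles for clone S9CC13, triangles for S9CC47 and black bars for medians. The RE nearest BMF keeps a median of 63.3 CPM at 5 nM and the RE nearest FOXC1 falls to a median of 5.36 CPM at 16 nM.

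The smallest p-values of this step were at 4 REs near genes of signalling, matrix and cytoskeleton. DAB2IP encodes a GTPase-activating protein of the RAS pathway, and the RE in its intron (chr9:121639175-121639675) held 18.4 to 42.7 CPM (median 31.6) at 0 nM, 16.7 to 37.7 (30.7) at 1.6 nM, 11.9 to 28.8 (21.9) at 5 nM and 9.16 to 16.2 (11.8) at 16 nM. Every sample at 16 nM was below every sample at 1.6 nM, with a step of -1.21 ± 0.08 (adjusted p = 1.14e-08). The RE nearest EMILIN3, a matrix glycoprotein gene, fell by 0.84 ± 0.06 (adjusted p = 3.11e-08). REs near EPB41L1, a cytoskeletal gene, and in RFLNA, which encodes a filamin-binding protein, fell by 0.92 ± 0.07 and 0.96 ± 0.07 (adjusted p = 6e-08 and 7.21e-08).

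The REs with the largest loss by 500 nM or at 3 h were picked by values that chose the REs. All 9 passed the test at this step, as did 125 of the 127 buffered rapid REs (6.02% of all REs were lower). The steepest of them was the RE in LIPG, which encodes endothelial lipase (-1.38 ± 0.18, adjusted p = 2.75e-05), followed by REs nearest CTNND2 (-1.25 ± 0.16) and in ADGRL3 (-1.25 ± 0.17). The smallest was at TAB2, which encodes an adaptor of the kinase TAK1, with -0.87 ± 0.12. The RE nearest API5, the one with the deepest loss at 3 h, had -1.05 ± 0.12. At the far end of all 127 was an RE nearest KLHL1, chosen after its values were seen, with a step of -2.11 ± 0.25. It held only 0.838 to 3.18 CPM (median 2.05) at 1.6 nM and 0.235 to 0.802 (0.398) at 16 nM, with no overlap.

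The 2 REs that did not pass were nearest MYCN (-0.51 ± 0.17, edgeR adjusted p = 0.0625) and in a non-coding exon at TRHDE (-0.57 ± 0.19, edgeR adjusted p = 0.0615). MYCN encodes a transcription factor of the MYC family. The RE nearest it held 3.23 to 14.3 CPM (median 8.29) at 1.6 nM and 1.18 to 10.9 (6.06) at 16 nM, with much overlap. At TRHDE the values were 2.18 to 6.99 (median 3.71) and 1.23 to 4.24 (3.00).

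The REs near protein-coding starts were chosen after the values were seen. There were 9 buffered rapid REs within 1000 bp of the start of 8 genes, namely B3GALT5, BANF2, MAGI1, MPP1, SPHK1 (2 REs), TBC1D16, VAX1 and VGLL4. All 9 fell between 1.6 and 16 nM, as did 125 of all 127 buffered rapid REs and 6.02% of all REs. Their median was -0.97, with a range from -1.60 (BANF2) to -0.50 (VGLL4). SPHK1 encodes a kinase that makes sphingosine-1-phosphate, and VGLL4 a cofactor of TEAD factors. The 2 REs at SPHK1 were 52 bp apart and fell by 1.01 and 0.91, and the pairs at SEMA5A (11 bp apart), IGSF11 (71 bp) and UTP25 (260 bp) also fell. REs this close to each other were counted as separate REs.

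REs around the buffered rapid REs were also counted. Counted for each of them in turn, 1131 other REs lay within 50 kb, of which 194 (17.15%) were lower at 16 nM than at 1.6 nM. The share was 12.05% around the sensitive rapid REs and 6.02% of all REs. In these counts an RE near several buffered rapid REs is held once for each of them. Buffered rapid REs that lie near each other are also included. At least 1 such neighbour was found for 79 of the 127 (62.2%), compared with 49.95% of the sensitive rapid REs. This share was not counted over all REs, so its base rate is not known here. It also depends on how many REs lie nearby, which were 17525 for the 2096 sensitive rapid REs.

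Whether the letters ACAAT mark a difference among the buffered rapid REs was read in the same step. The 90 REs with ACAAT had a median of -0.83 and the 37 without it -0.83. The 28 REs wider than 501 bp had -0.73 and the 99 others -0.85. At 0 nM the REs without ACAAT had a median of 31.2 CPM per kb and those with it 20.7. At 3 h, in the values that chose the REs, the medians were -0.98 without and -1.26 with ACAAT.

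The step from 0.5 to 1.6 nM, from 77.9 to 51.7% SOX9, also used none of the samples that chose the REs. No buffered rapid RE passed the threshold, nor did any RE of the whole table (0% called by edgeR in either direction), and DESeq2 called 0 of the 127. At an unadjusted p under 0.05 were 20 of the 127 by edgeR (15.75%, compared with 3.63% of all REs) and 15 by DESeq2 (2.34% of all REs). The log2 fold change was negative in 112 (88.2%), compared with 98.7% of the sensitive rapid REs and 48.6% of all REs. Its median was -0.09, compared with -0.19 for the sensitive rapid REs. With each replicate as a block in place of the differentiation, 10 of the 127 were lower (0.592% of all REs were), nearest FOXD2, BCOR, RFLNA, NCAM2, API5, TCF7L2, RAB2A, VEZF1, MYCN and EYS, with log2 fold changes from -0.27 to -0.13. Without replicate S9CC13_R6, 7 of the 127 were lower (0.301% of all REs), and without S9CC47_R6, 6 were (0.46%).

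The step from 1.6 to 16 nM was compared between the clones. Of the 127 REs, 0 passed the threshold for a difference between the clones (edgeR, with replicates as blocks; 0.0132% of all REs were called with a larger fall in S9CC47), and DESeq2 also called 0. At an unadjusted p under 0.05 were 72 (56.7%, compared with 4.97% of all REs) by edgeR and 51 by DESeq2 (2.39% of all REs). The fall was larger in S9CC47 in 124 of the 127 (97.6%), compared with 94.4% of the sensitive rapid REs and 49.0% of all REs. The median difference was -0.34, and the sensitive rapid REs had a median of -0.37. Only differentiation R6 held both clones, and there the median difference from 1.6 to 16 nM was -0.71 in S9CC13 and -0.82 in S9CC47. Thus clone and differentiation cannot be told apart in the other replicates.

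The time course gave the loss on the scale of hours. In the SOX9-tagged samples the median of the 127 REs was 34.4 (R4) and 28.4 (R5) CPM per kb with vehicle, 11.8 and 11.9 at 3 h, and 11.3 and 9.20 at 24 h. In the WT samples it was 36.4 and 29.7 with vehicle, 35.6 and 32.6 at 3 h, and 37.1 and 29.0 at 24 h. The tagged samples with dTAGV-1 were below all others, and those with vehicle differed from WT by a median of -0.14 on the log2 scale in R4 and in R5. From 3 h to 24 h the median difference in SOX9-tagged cells was -0.17 (R4) and -0.25 (R5), and over the 45 REs without the loss at 3 h it was -0.89 (R4) and -0.40 (R5). The 3 h and vehicle samples chose the REs, so these values carry no test.

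**Figure D4:**
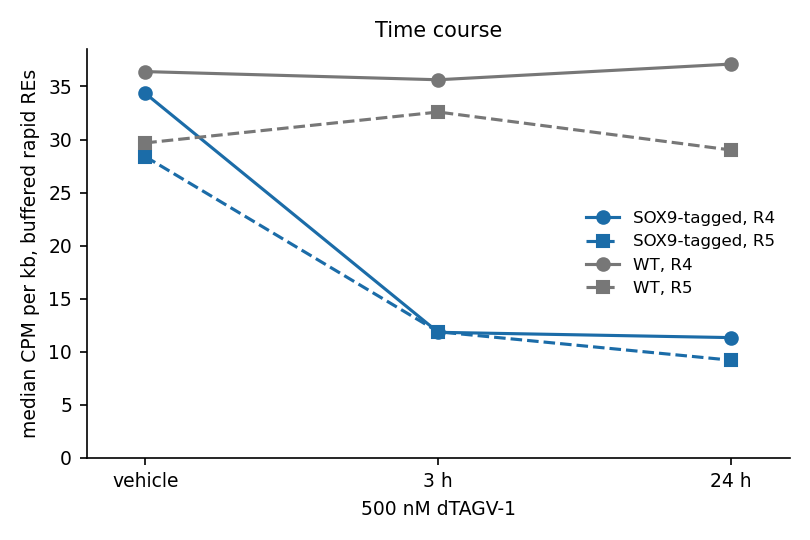
Median CPM per kb over the 127 buffered rapid REs in each sample of the time course, with vehicle and after 3 h and 24 h of 500 nM dTAGV-1. Solid lines are R4 and dashed lines R5; the SOX9-tagged samples are at 11.8 and 11.9 at 3 h and the WT samples stay between 29.0 and 37.1.

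SOX9-tagged and WT cells were also compared after 24 h of 500 nM. These 24 h samples did not choose the REs, but the fit shared its error estimate with the other time-course samples, some of which did. All 127 buffered rapid REs were lower in SOX9-tagged cells (edgeR adjusted p under 0.05; of all REs, 9.55% were lower and 4.41% higher). In a fit of the 24 h samples alone, 127 were lower as well (9.4% of all REs). The median log2 fold change was -1.75, with a range from -3.79 (KLHL1) to -0.84 (VGLL4). The sensitive rapid REs had a median of -2.14, and 28 of the 45 REs without the loss at 3 h were lower, with a median of -0.76. In 126 of the 127 both tagged samples were below both WT samples (15.7% of all REs), the exception being an RE nearest RAB2A. This comparison also holds any difference between the genotypes without dTAGV-1, for which the vehicle samples above give the size.

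At the RE in BMP7, the SOX9-tagged samples held 102 (R4) and 67.3 (R5) CPM with vehicle, 45.8 and 21.8 at 3 h, and 38.9 and 18.5 at 24 h. The WT samples held 105 and 75.4 with vehicle, 100 and 80.7 at 3 h, and 105 and 69.5 at 24 h. Within each differentiation the tagged cells lost most of the change by 3 h, and the genotypes at 24 h differed by -1.74 ± 0.15 (edgeR adjusted p = 2.74e-08). At the RE nearest API5, which has the facing pair with a gap of 7 bases, the tagged samples held 27.3 and 30.6 CPM with vehicle, 3.70 and 5.39 at 3 h, and 4.03 and 6.49 at 24 h. WT samples there held 35.5 and 32.5 at 24 h. The 24 h values were slightly above those at 3 h in both differentiations, and the difference from WT was -2.80 ± 0.16 (adjusted p = 1.26e-10).

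At the RE nearest BMF, which holds no ACAAT in its central 501 bases, the tagged samples held 71.9 and 69.5 CPM with vehicle, 45.8 and 39.8 at 3 h, and 37.5 and 37.2 at 24 h. WT samples held 82.3 and 72.9 at 24 h. The loss was shallower than at BMP7 and API5, with a difference from WT of -1.13 ± 0.10 (edgeR adjusted p = 3.03e-08). At the RE nearest FOXC1 the tagged samples held 17.5 and 17.8 CPM with vehicle, 5.67 and 4.69 at 3 h and 4.06 and 3.92 at 24 h, compared with 24.4 and 21.7 in WT at 24 h (-2.61 ± 0.13, adjusted p = 3.23e-11). The RE nearest RAB2A held 13.6 and 5.65 CPM in tagged and 28.5 and 12.8 in WT cells at 24 h, lower within each differentiation, but R4 of the tagged cells was above R5 of WT.

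WT cells show what dTAGV-1 did without the tag. At 48 h with 500 nM against 0 nM, 1 of the 127 buffered rapid REs was lower (0.145% of all REs were) and 1 higher (0.158%) by edgeR, and 0 by DESeq2. At an unadjusted p under 0.05 were 20 of the 127 by edgeR (8.28% of all REs) and 4 by DESeq2 (0.802%). The lower one was nearest CDH11 (-0.32 ± 0.07, edgeR adjusted p = 0.0128), with 30.5 (R8) and 26.4 (RSh) CPM at 0 nM and 25.0 and 20.8 at 500 nM. The higher one was nearest MGAT4C (0.49 ± 0.12, edgeR adjusted p = 0.0342), with 3.25 and 6.80 CPM at 0 nM and 5.12 and 8.75 at 500 nM. Neither was called when the differentiation was left out of the fit. The median over the 127 was 0.04, and 0.15 over the sensitive rapid REs.

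In the WT time course, 0 of the 127 REs passed the threshold at 3 h or 24 h against vehicle by edgeR, as did 0% of all REs, and DESeq2 called 0. At an unadjusted p under 0.05 was 1 RE at 3 h, the one nearest MYCN (0.28 ± 0.13; 2.28% of all REs), and 0 REs at 24 h (2.46%), with the same counts by DESeq2 (1.1 and 1.24% of all REs). The medians of the 127 REs were 0.01 at 3 h and -0.02 at 24 h.

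**Figure D5:**
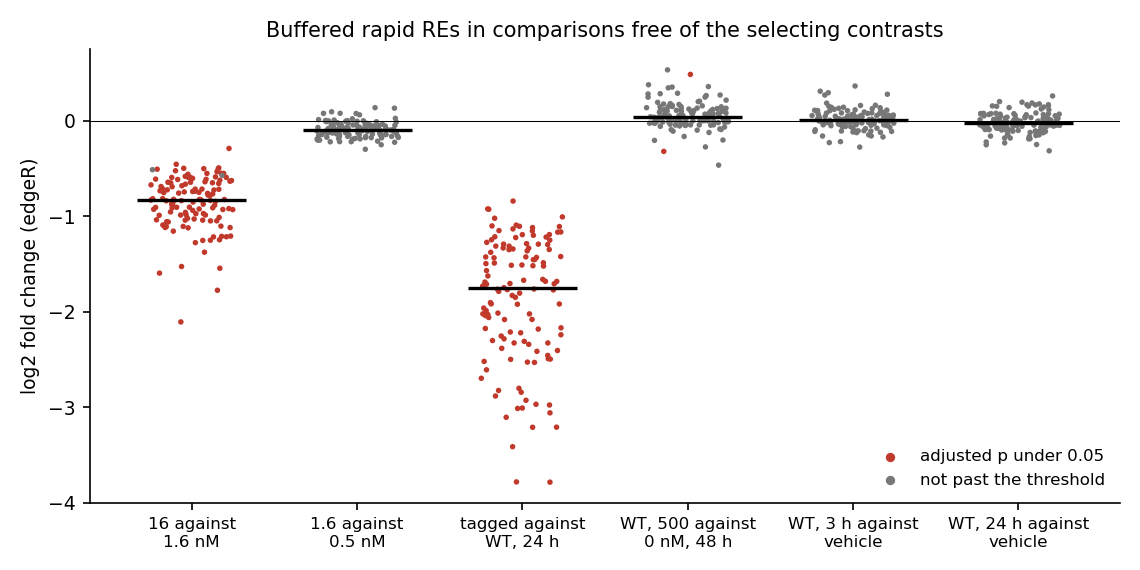
Log2 fold changes of the 127 buffered rapid REs in 6 comparisons, with red points for an edgeR adjusted p under 0.05, gray points for the others and black bars for medians. The medians are -0.83 for 16 against 1.6 nM, -0.09 for 1.6 against 0.5 nM and -1.75 for SOX9-tagged against WT cells at 24 h, and the WT comparisons lie around 0.

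Over the whole series, the sequenced depth in REs was between 22.91 and 81.04 M (mega) counts, and a buffered rapid RE held a mean of 900.9 counts per sample. No 2 of the 58 samples were identical. Among cell type markers, the promoter REs of the 6 CNCC genes (TWIST1, TFAP2A, NR2F1, PRRX1, ALX4 and PDGFRA) were between 30.6 and 117 CPM per kb at 0 nM. Promoter REs of other cell types were below that range, except LIN28A, which at 32.96 was above TFAP2A (30.6). They ran from 2.48 (POU5F1) to 32.96 (LIN28A) for pluripotent genes, 4.96 to 17.8 for neural genes and 5.92 for SOX17. NANOG, NEUROD1 and AFP, also on the marker list, had no promoter RE. The part of such cells in the results above was not tested.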

How the data were processed

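ATAC-seq was analysed in 58 samples. The authors deposited raw counts of reads per RE and sample, with no normalization. According to the methods of the study and the labels, reads were trimmed with skewer and aligned to hg38 with Bowtie2 2.4.1, duplicates, mitochondrial and poorly mapped reads were removed (SAMtools 1.10), and MACS2 2.2.7.1 summits seen in several differentiations were extended and merged into 1 set of REs. Since all samples were counted in that set, a region open in 1 or few samples has no count. Annotation was GENCODE release 44 and sequence was hg38.

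Samples were grouped by title. For S9CC13_R14 the concentration labels of the 0 and 0.5 nM samples contradict their titles, and the titles were used. The tagged R5 time-course columns name another clone than their titles, so clone was not used there. Counts were compared with edgeR 4.0.16 (TMM, quasi-likelihood F test, no filter, differentiation as covariate, Benjamini-Hochberg adjustment over 151457 REs, threshold 0.05). The test at 24 h and those of the WT time course came from 1 fit of the 12 time-course samples. The clone test had replicates as blocks. Standard errors were derived from the F statistic. DESeq2 1.42.0 was an alternative. The fits of 16 against 1.6 nM and of the genotypes at 24 h were also run on simulated counts. These had the same spread for every RE and no effect of differentiation, so they do not show how the fits handle differences between differentiations. The other fits were not simulated. The replicate names pair the samples, since samples of 1 name are 1 differentiation of 1 clone, and their deviations from the group means correlated at 0.653 or more in every pair at 1.6 and 16 nM.

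The REs and gene lists were chosen with earlier results of these data known. REs named are the 5 most accessible at 0 nM, the 5 extremes each of D500, D3 and D5/D500, up to 12 of the gene lists, the 4 smallest and 2 largest p at 16 against 1.6 nM, and those beside each limit. Sequences were shown for the REs with facing pairs and for the most accessible REs without ACAAT. Other REs, such as those nearest RAB2A and FOXD2, were chosen after their values were seen, also where the text does not say so. Intervals were not computed from counts, since the spread between replicates sets the precision of the tests.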

Additional observations from a re-analysis of the deposited data

How the results depend on the processing

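The number of buffered rapid REs went from 127 to 51 at a D5/D500 limit of 0.25 and to 273 at 0.35. Other limits of D500 and D3 were not tried. Leaving out 1 of the 7 replicates gave between 103 and 176 REs, of which at least 92 were among the 127. A pseudocount of 1 gave 111 and one of 0.1 gave 159 REs. 

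For 16 against 1.6 nM, the 125 lower REs, fitted with differentiation as covariate, became 72 with neither that covariate nor a replicate block (2.56% of all REs), 127 with a replicate block in its place (9.41% of all REs), and between 124 and 127 when a replicate was left out. Of the 27 REs named by rule, 25 were lower, and 16 without the covariate or a block. Of their 324 values under alternatives, 0 turned direction. For 1.6 against 0.5 nM, 0 became 10 with a replicate block (0.592% of all REs), and between 0 and 7 when a replicate was left out. The SOX9-tagged against WT comparison at 24 h kept between 126 and 127 of 127 when a sample was left out, and 86 with no covariate for the differentiation, or replicate block (3.15% of all REs). For WT cells at 48 h, the 2 REs called became 0 with DESeq2, 0 with no covariate or replicate block, and 0 when any sample was left out, which was run without the batch covariate. In that comparison and the time course, each group held 2 samples. The other alternatives, namely DESeq2, its size factors in edgeR and a filter on low counts, changed no other count by more than 1.5 times. The cause of these differences was not tested.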
